A study of Mus musculus with 8 samples.

Results

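The autophagy machinery and the MiT/TFE transcription factors were followed in retinal ganglion cells, the neurons whose axons form the optic nerve. The members were the genes whose symbol begins with Atg and a digit, with Map1lc3 or with Gabarap, together with 18 further genes named for initiation, lipid kinase, cargo receptor and transcription factor roles. They came to 41 of the 24942 genes listed, and all 18 named genes were found. The initiation gene Atg101 is listed under an older name that the symbols do not pick, so it is not among the members.

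The cells were isolated by immunopanning, which holds the wanted cells on antibody-coated plates, and lysed without culture. The 2 groups were NPC1-deficient mice and their wildtype littermates, both at postnatal day 8 and both of the strain given as balb/cnctr-npc1m1n/j, with 4 libraries each. NPC1 exports cholesterol from the lysosome, and the deficiency is carried by every cell of the animal, not by ganglion cells alone. The labels do not say how many animals went into a library or whether each had its own animals, so p-values here cover only the spread among libraries, which may be technical. Groups follow the titles. Another field gives the genotype as homozygous for libraries 3 and 4 and as wildtype for libraries 1 and 2, whichever group they belong to, and these pairs are called the library sets below.

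Autophagy encloses cytoplasm in a double membrane that fuses with the lysosome. The ULK1 complex starts it, a class III phosphatidylinositol kinase complex marks the site, ATG9 vesicles and the lipid transfer protein ATG2 feed the membrane, and ubiquitin-like conjugation attaches ATG8 proteins (LC3 and GABARAP), to which cargo receptors bind. TFEB, TFE3 and MITF are basic helix-loop-helix factors that bind CACGTG-type sites in promoters of lysosomal and autophagy genes and enter the nucleus when the lysosome signals stress or starvation. Neurons depend on this route because they cannot dilute old material by dividing, and autophagosomes are known to accumulate in Niemann-Pick type C cells. RNA levels do not measure that flux.

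Read totals ran from 35416750 to 41875855 in NPC1-deficient and from 33030175 to 44050118 in wildtype libraries. Npc1, which checks the titles, had 140, 70.0, 67.6 and 66.1 normalized reads in NPC1-deficient 1 to 4, and 707, 754, 831 and 857 in wildtype 1 to 4. No NPC1-deficient library came near a wildtype one, and the means were 85.9 ± 36.0 normalized reads in NPC1-deficient and 787 ± 69.1 in wildtype libraries (SD, n = 4 each; log2 fold change -3.25, limma adjusted p = 3.23e-05). Each of the 10 ganglion cell markers was detected, with sums of 266883 to 296675 normalized reads in NPC1-deficient and 255550 to 269608 in wildtype libraries. Markers of other cells were present in both groups. The 14 microglial markers summed to 2785 to 4555 in NPC1-deficient and 3936 to 16107 in wildtype libraries. The 10 rod markers summed to 1922 to 2702 in NPC1-deficient and 3262 to 8741 in wildtype libraries, with none of these markers at 0. All 14 microglial markers were lower in NPC1-deficient cells, 1 without overlap, with a median log2 fold change of -1.46. All 10 rod markers were lower too, 5 without overlap, with a median of -1.10. Over all genes tested the groups did not overlap for 4.27%. The 7 amacrine markers summed to 12194 to 13649 in NPC1-deficient and 13425 to 16208 in wildtype libraries, with 6 of 7 lower in NPC1-deficient cells, 4 of them without overlap, and a median log2 fold change of -1.45. Most of that sum was Pax6, the 1 higher marker, at 10793 to 11834 in NPC1-deficient and 10988 to 11560 in wildtype libraries. The 7 markers of Müller glia and astrocytes summed to 7750 to 8389 in NPC1-deficient and 8522 to 9549 in wildtype libraries, which did not overlap. Most of it was Glul, at 7012 to 7626 in NPC1-deficient and 7630 to 8010 in wildtype libraries. Of the 5 tested markers of this list 4 were lower in NPC1-deficient cells and 1, Aldh1l1, higher. Bipolar cell markers summed to 1829 to 1957 in NPC1-deficient and 1885 to 2739 in wildtype libraries, and those of pericytes and endothelium to 308 to 520.3 in NPC1-deficient and 361 to 454 in wildtype libraries. No single marker passed (limma), the smallest adjusted p being 0.0679, for an amacrine marker, and the part of these cells in the members' values was tested only by microglial and rod levels as terms. The mix of sexes also differed, with Xist at 0 to 68.1 normalized reads in NPC1-deficient and 18.2 to 595 in wildtype libraries, and genotype cannot be told apart from that mix in full.

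None of the autophagy or MiT/TFE genes passed the test between NPC1-deficient and wildtype cells. Of the 41 members, 40 had a mean of at least 10 normalized reads and were tested, and 0 passed (limma, Benjamini-Hochberg over 15386 genes), against 16 of all genes tested (0.104%). With so few calls over all genes, 0 among 40 members or within a role says little. At an unadjusted p under 0.05 there were 2 members, Atg9b and Map1lc3b, against 6.76% of all genes, and edgeR and DESeq2 on the recovered reads also called 0 members. Higher calls made up 0.039% and lower calls 0.065% of all genes. The log2 fold change was positive for 19 of the 40 members, against 52.0% of all genes, and negative for 21, against 48.0%, and the median was -0.00243 against 0.00497 over all genes tested. Fold changes ran from -0.33 for Atg4a to 0.24 for Atg9b.

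The intervals show how large a difference could have gone unseen, given the spread among these libraries, which may be technical. They do not bound a difference across animals, and the fit had no term for sex, cell mix or library set. For 36 of the 40 members the 95% interval of the log2 fold change lay within 0.5 either side of 0, and for 27 it lay within 0.25, against 72.1% and 40.0% of all genes tested. The 4 members with wider intervals were Atg4a, Wipi1, Mitf and Tfeb, which all averaged under 100 normalized reads in both groups. Between libraries of a group the members had a median SD of 0.11 on the log2 scale, against 0.15 over all genes tested. The SD ran from 0.0505 for Ulk2 to 0.58 for Tfeb, the tested member with the lowest level. Neither the SD nor the interval shares were compared with genes of matched level.

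**Figure D1:**
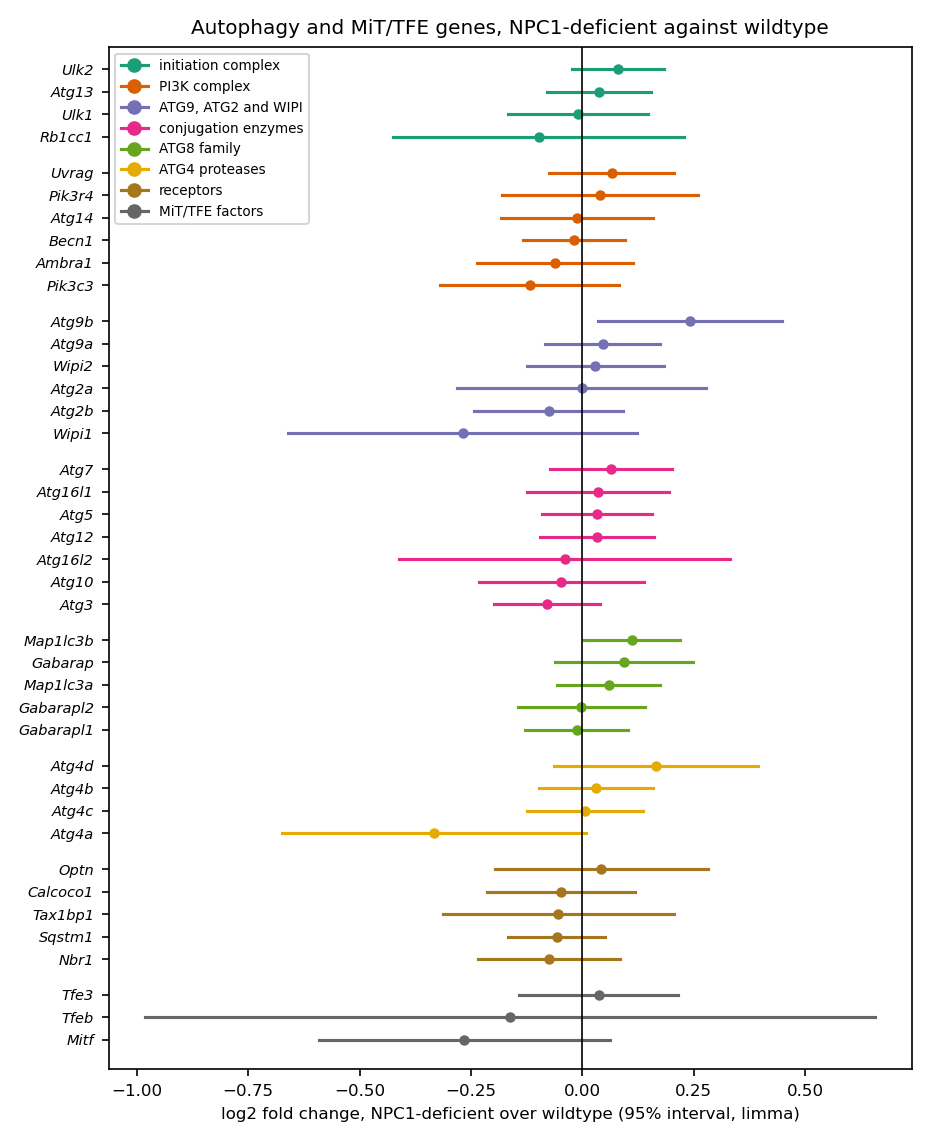
Log2 fold change of each tested member, NPC1-deficient over wildtype, as a point with its 95% limma interval as a line, coloured by role and n = 4 libraries per group. Most lines are short and cross 0, and the longest belongs to Tfeb, from -0.98 to 0.66.

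The level of these genes spanned several orders of magnitude. Normalized read counts divided by kilobases of exonic length, the scale used in this paragraph, were highest for Map1lc3a, which encodes LC3A, at 15523 ± 708 in NPC1-deficient and 14906 ± 844 in wildtype cells (SD, n = 4 each). Gabarapl1 followed at 12024 ± 778 in NPC1-deficient and 12120 ± 356 in wildtype cells. Gabarap was next, at 7072 ± 683 in NPC1-deficient and 6612 ± 394 in wildtype cells, and then Gabarapl2, at 6559 ± 496 in NPC1-deficient and 6568 ± 453 in wildtype cells. These neighbours did not differ from each other beyond their spread, and with transcript lengths they changed places in wildtype but not in NPC1-deficient cells. Sqstm1, the gene of the cargo receptor p62, came next at 4754 ± 279 in NPC1-deficient and 4944 ± 102 in wildtype cells.

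The 5 ATG8 genes made up 75.7% ± 1.20 of the summed per-kilobase level of all members in NPC1-deficient and 74.96% ± 1.04 in wildtype cells (SD, n = 4 each). Within the ATG8 family Map1lc3a held 36.2% ± 1.10 in NPC1-deficient and 35.6% ± 0.367 in wildtype cells, and Map1lc3b 4.09% ± 0.143 in NPC1-deficient and 3.89% ± 0.0775 in wildtype cells. The Map1lc3b share depends on the length used, since its annotated exons add up to 7517 bases and its principal transcript has 2532. With transcript lengths it held 9.71% ± 0.299 in NPC1-deficient and 9.25% ± 0.180 in wildtype cells.

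At the low end stood Atg16l2, a relative of Atg16l1, at 12.4 ± 2.92 in NPC1-deficient and 12.5 ± 0.739 in wildtype cells on the per-kilobase scale. Mitf stood at 9.68 ± 0.890 in NPC1-deficient and 11.7 ± 1.41 in wildtype cells. Tfeb was the lowest of the tested members at 2.13 ± 0.830 in NPC1-deficient and 2.45 ± 1.08 in wildtype cells, while Tfe3 stood at 98.9 ± 11.0 in NPC1-deficient and 96.1 ± 4.93 in wildtype cells. Tfe3 was thus the most abundant RNA of the 3 MiT/TFE factors in both groups. The 1 member that was not tested, Atg4a-ps, had 0 or 1 reads in NPC1-deficient and 0 to 2 reads in wildtype libraries, at or under the 3 reads that a count of 0 allows. Its name marks it as a pseudogene of Atg4a, so reads of this pair are uncertain, although GENCODE M21 lists it as protein-coding. Of its exonic length 23.9% overlaps Syt6 on the other strand, at 1431 to 1878 normalized reads in NPC1-deficient and 1622 to 2028 in wildtype libraries.

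**Figure D2:**
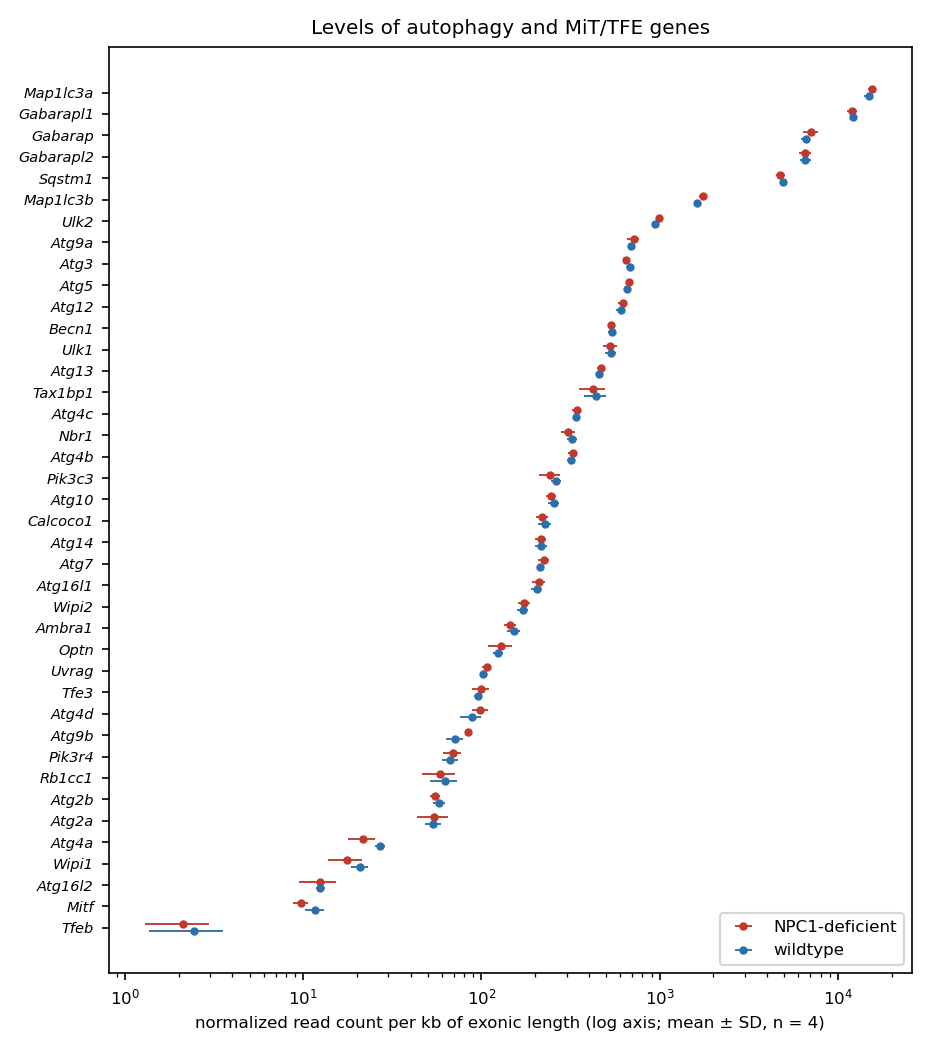
Normalized read count per kilobase of exonic length for each tested member on a log axis, as mean and SD of 4 NPC1-deficient (red) and 4 wildtype (blue) libraries. In both groups Map1lc3a is highest, at 15523 in NPC1-deficient and 14906 in wildtype cells, and Tfeb lowest, at 2.13 in NPC1-deficient and 2.45 in wildtype cells.

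Among the genes of the initiation complex, fold changes were positive for 2 and negative for 2, and none passed. The smallest p belonged to Ulk2, a kinase that acts beside ULK1. It had 5624, 6267, 5995 and 5902 normalized reads in NPC1-deficient 1 to 4, and 5630, 5724, 5681 and 5454 in wildtype 1 to 4. The groups overlapped through NPC1-deficient 1, and the log2 fold change was 0.08 (95% interval -0.0232 to 0.18, limma adjusted p = 0.891). Ulk1 averaged 3420 ± 322 in NPC1-deficient and 3439 ± 245 in wildtype cells (SD, n = 4 each). Atg13, the adaptor of the kinases, averaged 2034 ± 79.9 in NPC1-deficient and 1983 ± 73.97 in wildtype cells. Rb1cc1, which encodes the scaffold FIP200, averaged 859 ± 181 in NPC1-deficient and 914 ± 155 in wildtype cells.

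In the lipid kinase complex fold changes were positive for 2 genes and negative for 4, and none passed. The catalytic subunit gene Pik3c3 (VPS34) had 1270, 1124, 986 and 947 normalized reads in NPC1-deficient 1 to 4, and 1215, 1224, 1177 and 1055 in wildtype 1 to 4. NPC1-deficient 3 and 4 lay below every wildtype library and NPC1-deficient 1 above them all. In log2 terms the difference was -0.12 (95% interval -0.32 to 0.0830, limma adjusted p = 0.955). Becn1, whose product holds the complex together, averaged 3760 ± 149 in NPC1-deficient and 3813 ± 186 in wildtype cells, and 43.9% of its exonic length overlaps Cntd1 on the other strand, itself at most 10.9 normalized reads in NPC1-deficient and 13.7 in wildtype libraries. Atg14, which sends the complex to the autophagosome, averaged 928 ± 69.6 in NPC1-deficient and 936 ± 73.6 in wildtype cells, and Uvrag, which takes its place in the complex that serves endosomes, averaged 965 ± 58.97 in NPC1-deficient and 921 ± 32.4 in wildtype cells. Ambra1, a scaffold that ties the complex to ubiquitin ligases, averaged 888 ± 69.4 in NPC1-deficient and 927 ± 79.4 in wildtype cells.

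Atg9b had the smallest p of all members. The gene lies at chr5:24384181-24392143 on the minus strand (mm10), and its product, like ATG9A, is a membrane-spanning lipid scramblase that seeds the autophagosome. It had 327, 337, 337 and 320 normalized reads in NPC1-deficient 1 to 4, and 245, 295, 314 and 267 in wildtype 1 to 4. Every NPC1-deficient library lay above every wildtype library, by a narrow gap between 314 and 320. The log2 fold change was 0.24 (SE 0.0947, 95% interval 0.0353 to 0.45, limma adjusted p = 0.571), so it did not pass. Libraries 3 and 4 taken alone gave 0.18, and libraries 1 and 2 gave 0.30. Of the Atg9b exonic length 7.45% overlaps the opposite-strand gene Nos3, which stood at 83.1 normalized reads in NPC1-deficient and 78.6 in wildtype cells.

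The more abundant Atg9a averaged 4109 ± 311 in NPC1-deficient and 3976 ± 130 in wildtype cells (SD, n = 4 each), but its reads are uncertain in part because Gm29253, on the same strand, covers 31.8% of the exons. Of the 6 genes for ATG9, ATG2 and the phosphoinositide-binding WIPI proteins, 3 lay above 0 and 3 below it in fold change. Among them Wipi1 had the lowest level, 77.2 ± 16.7 in NPC1-deficient and 91.8 ± 10.2 in wildtype cells, against 1832 ± 139 in NPC1-deficient and 1795 ± 123 in wildtype cells for Wipi2. Atg2b averaged 739 ± 49.8 in NPC1-deficient and 779 ± 59.8 in wildtype cells, and its paralogue Atg2a averaged 417 ± 82.4 in NPC1-deficient and 414 ± 43.8 in wildtype cells.

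The genes of the conjugation system had log2 fold changes between -0.0802 and 0.0633, with 4 of 7 positive and 3 negative, and none passed. Atg3, the E2-like enzyme that loads ATG8 onto lipid, had 1988, 1970, 2020 and 2140 normalized reads in NPC1-deficient 1 to 4, and 2251, 2167, 2014 and 2154 in wildtype 1 to 4. The groups overlapped, and the log2 fold change was -0.0802 (95% interval -0.20 to 0.0388, limma adjusted p = 0.928). Atg7, the E1-like enzyme, averaged 1552 ± 107 in NPC1-deficient and 1484 ± 56.8 in wildtype cells (SD, n = 4 each). Atg5, which is joined to ATG12, averaged 1582 ± 68.1 in NPC1-deficient and 1546 ± 63.97 in wildtype cells, and Atg12 averaged 4773 ± 281 in NPC1-deficient and 4664 ± 263 in wildtype cells. Atg10, the E2-like enzyme of ATG12, averaged 423 ± 29.5 in NPC1-deficient and 437 ± 31.2 in wildtype cells. Atg16l1, which places the conjugates on the membrane, averaged 2016 ± 177 in NPC1-deficient and 1966 ± 135 in wildtype cells. With quantile scaling the sign of Atg16l2 and of Atg2a turned, and Atg2a also turned with edgeR and DESeq2; no other member turned under a change of scaling.

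Map1lc3b, which encodes LC3B, the ATG8 protein most used as a marker of autophagosomes, had the other unadjusted p under 0.05. It had 12884, 12400, 13819 and 13724 normalized reads in NPC1-deficient 1 to 4, and 11844, 12257, 12050 and 12725 in wildtype 1 to 4. NPC1-deficient 2 lay below wildtype 4, so the groups overlapped. The log2 fold change was 0.11 (SE 0.0496, 95% interval 0.00317 to 0.22, limma adjusted p = 0.705), with 0.15 within libraries 3 and 4 and 0.0690 within libraries 1 and 2. Fold changes were positive for 3 of the ATG8 genes and negative for 2, and none passed. Gabarapl1 shares 28.3% of its exonic length with 1700101I11Rik, an opposite-strand gene, and reads in that shared part cannot be told apart by strand. The reads counted for 1700101I11Rik itself, which do not measure that shared part, were 111 to 148 normalized reads in NPC1-deficient and 119 to 142 in wildtype libraries.

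The ATG4 proteases trim ATG8 proteins before conjugation and free them from lipid afterwards. The largest negative fold change among all members was that of Atg4a, a gene on chromosome X. It had 49.9, 71.0, 51.2 and 56.8 normalized reads in NPC1-deficient 1 to 4, and 75.2, 72.7, 73.7 and 65.5 in wildtype 1 to 4. The groups overlapped through NPC1-deficient 2, and the log2 fold change was -0.33 (SE 0.16, 95% interval -0.67 to 0.00906, limma adjusted p = 0.754). The other 3 protease genes had positive fold changes, and Atg4b, the most abundant, averaged 2688 ± 142 in NPC1-deficient and 2633 ± 146 in wildtype cells (SD, n = 4 each). Atg4c averaged 1144 ± 62.3 in NPC1-deficient and 1138 ± 20.6 in wildtype cells. Atg4d averaged 715 ± 71.0 in NPC1-deficient and 639.9 ± 86.6 in wildtype cells, and 19.3% of its exonic length overlaps Kri1 on the other strand, which averaged 124 in NPC1-deficient and 141 in wildtype cells.

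Cargo receptors tie ubiquitin-marked material to ATG8 proteins. Of the receptor genes 1 lay above and 4 lay below 0 in fold change, and none passed. Sqstm1 had 17353, 15596, 15502 and 15362 normalized reads in NPC1-deficient 1 to 4, and 16578, 16130, 16713 and 16947 in wildtype 1 to 4. NPC1-deficient 2, 3 and 4 lay below every wildtype library and NPC1-deficient 1 above them all. Its log2 fold change was -0.0582 (95% interval -0.17 to 0.0501, limma adjusted p = 0.969). Of the Sqstm1 exonic length 17.3% overlaps the opposite-strand gene Mrnip. Optn, the receptor gene known for its part in glaucoma, averaged 484 ± 75.6 in NPC1-deficient and 466 ± 32.2 in wildtype cells, and Nbr1, which acts beside p62, averaged 2100.4 ± 190.0 in NPC1-deficient and 2209 ± 146 in wildtype cells. Calcoco1, a receptor gene of the endoplasmic reticulum, averaged 1255 ± 92.98 in NPC1-deficient and 1299 ± 114 in wildtype cells.

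Among the MiT/TFE factors, Mitf, at chr6:97807052-98021349 on the plus strand (mm10), was the other member whose groups did not overlap. It had 62.6, 60.0, 52.3 and 65.1 normalized reads in NPC1-deficient 1 to 4, and 66.1, 67.6, 70.9 and 85.2 in wildtype 1 to 4. Every NPC1-deficient library lay below every wildtype library, with 65.1 the highest in NPC1-deficient and 66.1 the lowest in wildtype. The log2 fold change was -0.27 (SE 0.15, 95% interval -0.59 to 0.0613, limma adjusted p = 0.870), with -0.41 from libraries 3 and 4 alone and -0.12 from libraries 1 and 2. Groups that do not overlap were found for 2 of the 40 members (5%), 1 in each direction, against 4.27% of all genes tested (1.86% higher and 2.41% lower), so the share of the members lay near that of all genes.

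MITF is also made in pigment cells and in microglia, and markers of both were measured. The 9 markers of retinal pigment epithelium and melanocytes summed to 536 to 689 normalized reads in NPC1-deficient and 598 to 1099 in wildtype libraries, most of it from Rlbp1, which Müller glia make as well. Rpe65 stood at 7.0 to 19.96 in NPC1-deficient and 6.53 to 12.6 in wildtype libraries, and Mlana was listed at 0 in 3 NPC1-deficient and 2 wildtype libraries. Among the wildtype libraries wildtype 4 had both the most Mitf and the highest microglial sum, while among the NPC1-deficient libraries NPC1-deficient 4 had the most Mitf and the lowest microglial sum. With the microglial level as a term no member passed, Mitf included. None passed without that term either, so this outcome cannot decide the part of microglia in the Mitf values. The part of pigment cells in the Mitf values was not tested. In bulk RNA fewer cells of a type and less RNA per cell cannot be told apart.

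Tfe3, on chromosome X, had 1048, 939, 819 and 857 normalized reads in NPC1-deficient 1 to 4, and 915, 833, 875 and 936 in wildtype 1 to 4. The NPC1-deficient libraries held both the highest and the lowest value, and the log2 fold change was 0.0362 (95% interval -0.14 to 0.22, limma adjusted p = 0.995). Tfeb had 18.1, 13.0, 9.81 and 7.23 normalized reads in NPC1-deficient 1 to 4, and 6.84, 15.1, 12.1 and 21.5 in wildtype 1 to 4. These rest on 7 to 20 reads in NPC1-deficient and 6 to 24 reads in wildtype libraries, and the groups overlapped throughout. The log2 fold change was -0.16 (95% interval -0.98 to 0.66, limma adjusted p = 0.995), the widest interval of the tested members.

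**Figure D3:**
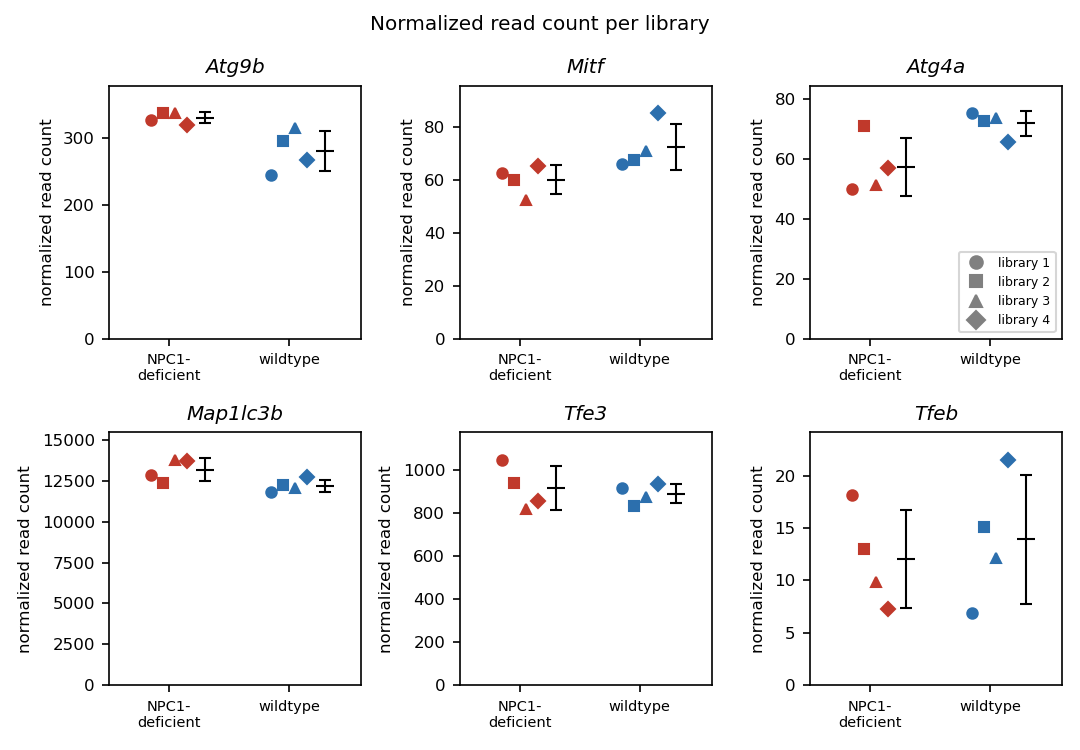
Normalized read count of 6 members in each library, NPC1-deficient (red) left of wildtype (blue), with the library number as the symbol and mean ± SD (n = 4) as the bar. Atg9b and Mitf are the genes whose groups do not overlap, with gaps from 314 to 320 and from 65.1 to 66.1, and Tfeb spans 6.84 to 21.5 without a split by genotype.

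Since MiT/TFE factors bind CACGTG, the promoters of the members were read for it. RefSeq windows of 300 bases, from 250 before to 50 after each annotated start on GRCm38.p6, matched 34 of the 41 members by symbol. CACGTG, which reads the same on both strands, was in windows of 4 of the 34 members (11.8%), against 8.09% of the 27025 genes with a window. The longer form TCACGTGA, which contains CACGTG, was in that of 1 member, Atg3 (2.94%), against 1.13% of genes. CATGTG on either strand, the variant that MITF also binds, was in windows of 2 members, Atg2a and Atg9b (5.88%), against 15.9% of genes. The stretches around the CACGTG matches are shown because they hold the letters that such factors are known to bind, with the CACGTG in capitals, 5′ to 3′ on the strand of the gene.
Atg3, chr16:45158708-45158790, plus strand: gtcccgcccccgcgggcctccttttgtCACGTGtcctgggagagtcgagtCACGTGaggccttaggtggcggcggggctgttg
Atg5, chr10:44268298-44268357, plus strand: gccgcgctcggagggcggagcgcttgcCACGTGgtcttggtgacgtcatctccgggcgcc
Atg7, chr6:114670937-114670996, plus strand: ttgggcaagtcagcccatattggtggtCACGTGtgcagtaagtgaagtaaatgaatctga
Atg14, chr14:47568403-47568462, minus strand: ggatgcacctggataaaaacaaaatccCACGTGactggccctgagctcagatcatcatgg
The first base of the match lay 94 and 71 bases upstream of the annotated start in Atg3, 14 in Atg5, 132 in Atg7 and 1 in Atg14. The RefSeq starts used for Atg7 and Atg14 are internal ones, since both stretches lie inside the gene as GENCODE M21 bounds it, downstream of its outermost start. The Atg3 stretch, itself upstream of the RefSeq start used, ends just past the outermost GENCODE M21 start at base 45158785, so that RefSeq start is internal too. Of these 4 genes, 3 encode conjugation enzymes or their partner and 1 a subunit of the lipid kinase complex, and none of the 4 passed between the groups. A match is a description of the letters and not a measured binding site.

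Genes of the same route outside the members were counted in 3 lists. Over all genes tested 0.104% passed, 52.0% had a positive fold change and the median was 0.00497. At that share 0 calls in a short list says little. Of 33 tested genes of other autophagy steps 0 passed, with 18 positive and 15 negative fold changes and a median of 0.00540. The smallest p among them was that of Vamp8, a SNARE for fusion of autophagosome and lysosome, with 129, 135, 154 and 154 normalized reads in NPC1-deficient 1 to 4 and 168, 161, 194 and 214 in wildtype 1 to 4. Its groups did not overlap, and the log2 difference was -0.36 ± 0.12 (SE; limma adjusted p = 0.436). Groups that do not overlap were found for 2 of the 33 genes, against 4.27% of all genes tested. Tmem41b, a lipid scramblase of the endoplasmic reticulum, had a difference of 0.21 in log2 units (limma adjusted p = 0.462) and Snap29, the SNARE that pairs with VAMP8, one of 0.13 (limma adjusted p = 0.736).

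Among 25 upstream regulators of ULK1 and of the MiT/TFE factors 0 passed, against 0.104% of all genes tested. Fold changes were positive for 13 and negative for 12, with a median of 0.00407. Rragd, a Rag GTPase and itself a known MiT/TFE target, had 2971, 3412, 2876 and 3080 normalized reads in NPC1-deficient 1 to 4, and 2760, 2758, 2663 and 2779 in wildtype 1 to 4. Every NPC1-deficient library lay above every wildtype library, and the log2 difference was 0.17 ± 0.0582 (SE; limma adjusted p = 0.442). Of the 25 regulators 2 had groups that do not overlap, against 4.27% of all genes tested. Prkag2, a subunit of AMP-activated kinase, had a difference of 0.0966 in log2 units (limma adjusted p = 0.823) and Ppp3cb, a calcineurin subunit, one of 0.0808 (limma adjusted p = 0.844).

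Among 23 tested lysosomal and related genes known to carry CACGTG-type sites 0 passed, against 0.104% of all genes tested. Fold changes were positive for 11 and negative for 12, with a median of -0.0267. After Rragd, which this list shares with the regulators, the smallest p was that of Tpp1, a lysosomal peptidase. It had 1290, 1140, 1103 and 1044 normalized reads in NPC1-deficient 1 to 4, and 1241, 1247, 1348 and 1392 in wildtype 1 to 4. NPC1-deficient 1 lay among the wildtype libraries and the other 3 NPC1-deficient libraries below them all, with a log2 difference of -0.19 (limma adjusted p = 0.536). In libraries 3 and 4 alone Tpp1 passed, at -0.35 (limma adjusted p = 0.0317). So did the cathepsin gene Ctsd, named after its values were seen, at -0.33 (limma adjusted p = 0.0409). In that fit 335 of all genes tested passed, 238 of them lower. Microglial markers summed to 4330 and 2785 in NPC1-deficient 3 and 4 and to 9181 and 16107 in wildtype 3 and 4. The part of microglia in these 2 calls was not tested. Scpep1, which encodes a serine carboxypeptidase, had a difference of 0.22 in log2 units (limma adjusted p = 0.823).

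Between the library sets 2 of the 40 members passed, Rb1cc1 and Tax1bp1. This comparison, libraries 3 and 4 against libraries 1 and 2 with genotype as a term, was added after the data were seen, and the labels do not say what the sets differ in beyond the contradicted genotype field. Both genes fell in libraries 3 and 4 (limma, Benjamini-Hochberg over all genes), where 268 of all genes tested fell (1.74%). No member rose, against 0.435% of all genes, and 335 genes (2.18%) passed in either direction. The median over the members was -0.0769 on the log2 scale against 0.00496 over all genes, and 28 of the 40 (70%) were negative, against 48.7% of all genes, where 51.3% were positive. With upper-quartile scaling the medians were -0.0562 over the members and 0.0255 over all genes.

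**Figure D4:**
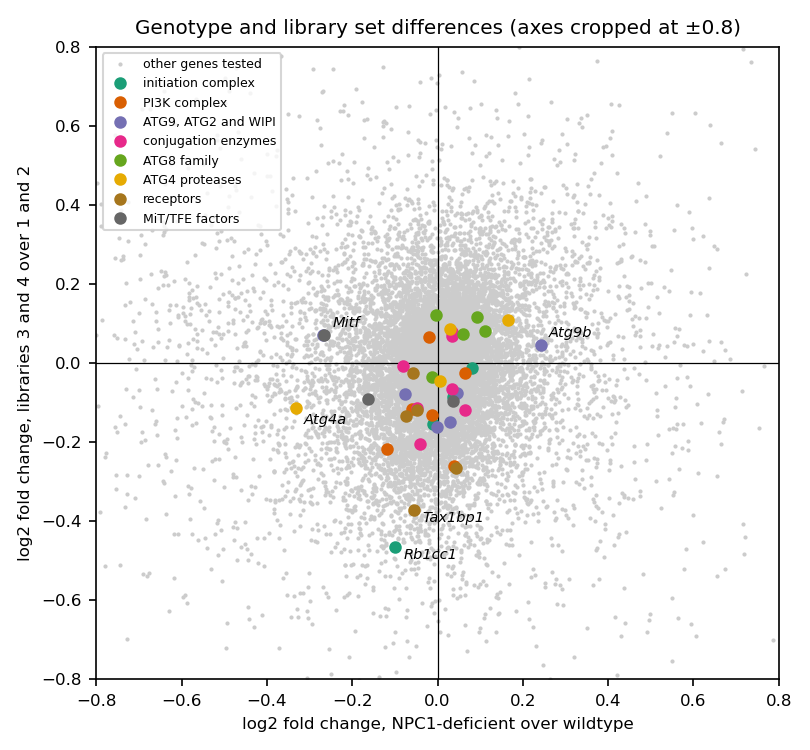
Log2 fold change by genotype (x, NPC1-deficient over wildtype) against log2 fold change by library set (y, libraries 3 and 4 over 1 and 2) for the members, coloured by role, over all other tested genes in grey, with axes cropped at 0.8. Rb1cc1 at -0.47 and Tax1bp1 at -0.37 on the y axis lie below the other members, and Atg9b at 0.24 and Atg4a at -0.33 mark the ends along the x axis.

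Rb1cc1, at chr1:6206197-6276648 on the plus strand (mm10), had 670 and 739 normalized reads in NPC1-deficient 3 and 4 and 820 and 750.0 in wildtype 3 and 4, against 983 and 1042 in NPC1-deficient 1 and 2 and 999.7 and 1085 in wildtype 1 and 2. The sets did not overlap, and the log2 difference was -0.47 ± 0.0654 (SE; limma adjusted p = 0.00579). Tax1bp1, a cargo receptor gene at chr6:52713729-52766780 on the plus strand, had 3437 and 3841 normalized reads in NPC1-deficient 3 and 4 and 3961 and 3760 in wildtype 3 and 4, against 4724 and 4900.1 in NPC1-deficient 1 and 2 and 4937 and 4835 in wildtype 1 and 2. Its sets did not overlap either, and the log2 difference was -0.37 ± 0.0486 (SE; limma adjusted p = 0.00433). Without wildtype 1 and NPC1-deficient 1 Tax1bp1 no longer passed (limma adjusted p = 0.0631), while Rb1cc1 did (limma adjusted p = 0.0492).

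Sets that did not overlap were found for 6 of the 40 members (15%), against 9.52% of all genes tested, and all 6 were lower in libraries 3 and 4, where 5.89% of all genes were, against 3.63% that were higher. Besides Rb1cc1 and Tax1bp1 they were Optn, at -0.27 on the log2 scale (limma adjusted p = 0.0953), Pik3r4, the regulatory subunit of the lipid kinase, with -0.26 (limma adjusted p = 0.0617), Wipi2 with -0.15 (limma adjusted p = 0.175) and Atg7 with -0.12 (limma adjusted p = 0.25). Optn had 433 and 407 normalized reads in NPC1-deficient 3 and 4 and 436 and 449 in wildtype 3 and 4, against 536 and 560.4 in NPC1-deficient 1 and 2 and 509.5 and 471 in wildtype 1 and 2. Its highest value in the first set, 449, lay close to the lowest in the other, 471. Without wildtype 3 the number of members that passed was 4, with Pik3r4 (limma adjusted p = 0.0269) and Pik3c3 added. By role, all 5 receptor genes and all 4 initiation genes had a negative set difference. So did 5 of 6 genes of the lipid kinase complex, 5 of 7 of conjugation and 4 of 6 of ATG9, ATG2 and WIPI. Negative differences were fewer among ATG4 proteases (2 of 4), MiT/TFE factors (2 of 3) and ATG8 genes (1 of 5). Some were near 0, such as -0.0128 ± 0.0458 for Ulk2 and -0.0254 ± 0.0483 for Sqstm1 (SE). With upper-quartile scaling Ulk2 of the initiation genes turned positive. Of the other autophagy genes 1 rose in libraries 3 and 4, Tbk1, the kinase that phosphorylates cargo receptors, with a log2 difference of 0.33 (limma adjusted p = 0.0274), and 1 fell, Tecpr1, a tethering factor of autophagosome and lysosome, with -0.34 (limma adjusted p = 0.0435).

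Longer transcripts tended to have a more negative set difference. Across 15235 genes Spearman's rho between the length of the principal transcript and the set difference was -0.30, and across the 40 members it was -0.27, with all values from the same 8 libraries. With transcript GC content the same measure was -0.0709 over all genes and -0.00544 over the members. Rb1cc1 has the longest principal transcript of the members, 7607 bases, and the lowest GC content, 39.1%, and Tax1bp1 has 3285 bases and 42.2% GC. The part of length in the set differences was not tested.

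**Figure D5:**
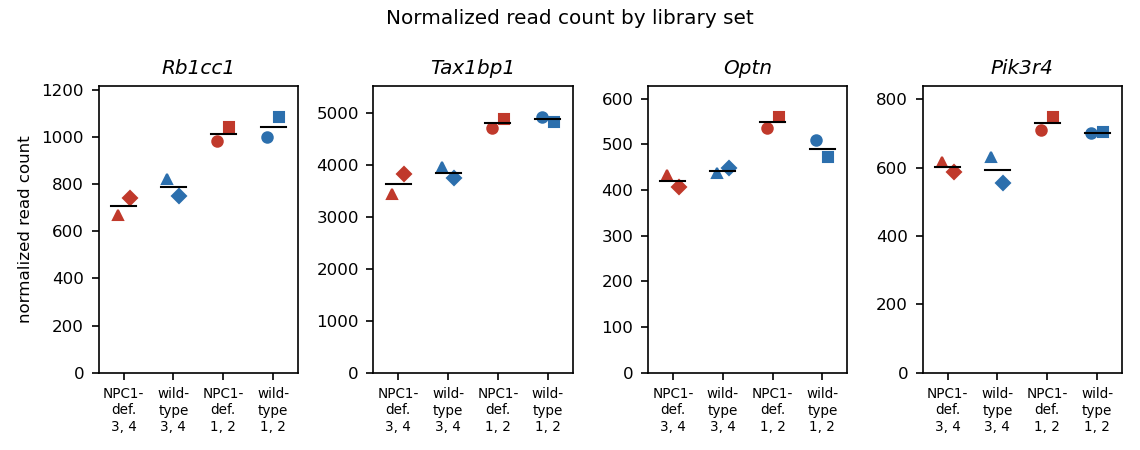
Normalized read count of the 4 members with the largest set differences in each library, libraries 3 and 4 left of libraries 1 and 2, NPC1-deficient in red and wildtype in blue, with the mean of each pair as a line. For Rb1cc1 every library of the first set lies at or below 820 and every library of the second at or above 983, in both genotypes.

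The genotype difference was also taken within each set. Within libraries 3 and 4 the members' median log2 fold change, NPC1-deficient over wildtype, was -0.0610 with 13 of 40 positive, and within libraries 1 and 2 it was 0.0349 with 28 of 40 positive. The corresponding medians over all genes tested were 0.000954 in the first pair of libraries and 0.00140 in the other. No member passed within either set, 21 of the 40 had the same sign in both, and the difference between the sets was not tested.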

How the data were processed

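The 8 RNA libraries were made with a TruSeq v2 kit from Illumina (per the labels' protocols), which keeps no strand information. The submitters' processing notes name mm10, DESeq2 1.0.19, HTSeq 0.5.4p3 and CASAVA 1.8.2, with no roles. An aligner or annotation release is not given in the sources used here. Values in the deposited table are a normalized signal, a read count divided by 1 size factor per library by the authors, as the values show. All 199536 values (100%) were whole multiples of their library's step within 1e-06 of a read, so whole reads were recovered. A value of 0 allows up to 3 reads, a normalized value of 2.69 to 3.42, for counting error only.

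Genes with a mean of at least 10 were taken as log2(value + 1), which understates fold changes of low genes, and compared with limma 3.58.1 (R 4.3.3) with a mean-variance trend, no covariate, and Benjamini-Hochberg adjustment at 0.05 over all genes. The fit was tested on simulated data. Exonic lengths and overlaps came from GENCODE M21, the same build as mm10, where 98.1% of identifiers were found. The principal transcript is the longest of the APPRIS principal ones. Alternatives were other pseudocounts, filters, scalings and moderation, edgeR 4.0.16 and DESeq2 1.42.0 on recovered reads, a replicate block, the library set, each set alone, marker levels as terms, and leaving out libraries. Values per library were given for members whose groups did not overlap, the member with the smallest p in each role, and the MiT/TFE factors; of the other lists the 3 with the smallest p were named. Members and lists were chosen with earlier results of these data known. A gene of the lysosomal list is not reported here.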

Additional observations from a re-analysis of the deposited data

Results flagged for a closer look

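In each group of 4 libraries the highest or lowest value was compared with the rest, and 4 of the 80 groups of tested members held a library far from the others, which is the share of 1 in 20 that chance gives. Sqstm1 was at 17353 normalized reads in NPC1-deficient 1, against 15362 to 15596 in the other NPC1-deficient libraries. Atg2b, a lipid transfer protein gene, was at 813 in NPC1-deficient 2, against 708 to 724 in the others. Map1lc3a was at 19093 in wildtype 4, against 16990 to 17201 in the other wildtype libraries. Ulk1 was at 3804 in wildtype 1, against 3282 to 3347 in the other wildtype libraries.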

How the results depend on the processing

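No member passed between genotypes in any of the 24 alternatives, where the smallest adjusted p of a member ran from 0.18 (microglial level as a term) to 1.0 (rod level). The median of the members ran from -0.0143 to 0.0308 with 1 library left out and was -0.0610 in libraries 3 and 4 alone. The 16 genes called overall became 10 with a minimum mean of 50, 246 with DESeq2, 34 with the replicate block, 99 with the library set as a term, 57 in libraries 1 and 2 alone, 335 in libraries 3 and 4 alone, 69 when the microglial level and 98 when the rod level was a term, 170 without wildtype 1 and NPC1-deficient 1 (added after the data were seen), and 2 to 144 with 1 library left out (144 without wildtype 1). Same-numbered libraries did not deviate together (correlations of -0.0659 to -0.0170), so the replicate block shows no pairing, and it called 0 members. Npc1 ran from -3.51 to -3.16 with 1 library left out. Calls among genes with CACGTG-type sites became 2 in libraries 3 and 4 alone (Tpp1 and Ctsd) and were 0 in every other alternative. The other autophagy genes and the regulators had 0 calls throughout. Signs were followed across all alternatives for the genes named between genotypes by overlap, smallest p or MiT/TFE role. Among these, the sign turned for Pik3c3 with the rod level (0.0116) and for Tfeb with the microglial level (0.86). Sqstm1 (0.00863) and Tfeb (0.54) turned in libraries 1 and 2 alone. Tfe3 turned in libraries 3 and 4 alone (-0.11) and without wildtype 1 and NPC1-deficient 1 (-0.0168). Other members also turned with 1 set alone, such as Atg9a (-0.0679) and Atg16l1 (-0.12) in libraries 3 and 4. With 1 library left out Tfe3 ran from -0.0309 to 0.0878 and Tfeb from -0.44 to 0.0700. Between library sets the calls became 799 with DESeq2, 27 without wildtype 1 and NPC1-deficient 1 and 47 to 912 with 1 library left out, and the members called became 1 without wildtype 1 and NPC1-deficient 1, 2 to 4 with 1 left out (4 without wildtype 3) and 3 with DESeq2. By transcript length the ATG8 share of wildtype cells was 69.9% in place of 74.96%. For these changes the cause was not tested. Tfeb rests on 7 to 20 reads in NPC1-deficient and 6 to 24 in wildtype libraries, and Atg4a-ps, with at most 2 reads, could not be tested.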
